A study of Mus musculus with 37 samples.

Results

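The circadian clock genes Per1, Per2, Per3, Cry1, Cry2, Clock, Npas2, Dbp, Nr1d1 and Nr1d2 were followed in mouse cortex by every probe set, the group of short array sequences that reads 1 transcript, that the platform annotation gives to each of them under its current or an older symbol. All 10 genes were measured, among 18193 genes with a probe set of 1 symbol, and they held 23 of the 45037 probe sets on the array. The series compared 37 mice by cortex RNA, taken at 9 wk and read on 1 Affymetrix array per mouse, on a CBA and C57BL/6 background, in 4 genotypes. WT mice (9 arrays) carried neither mutation, Hdac4HET mice (9 arrays) carried 1 null allele of the histone deacetylase gene Hdac4, R6/2 mice (9 arrays) carried a transgene for a mutant fragment of human huntingtin encoded by exon 1, a model of Huntington's disease (HD), and Dble::R6/2 mice (10 arrays) carried both. The Hdac4 null allele was made on a 129S background and then backcrossed, so that 129S sequence linked to Hdac4 can remain in its carriers, and heterozygotes were used because mice without any Hdac4 die soon after birth. The R6/2 transgene gives a fragment and not full-length huntingtin. All mice lived under the same light/dark cycle, and the sources used here do not give the hour of day at which the cortex was taken.

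The clock is a feedback loop that most cells of the body run. CLOCK, or its relative NPAS2, pairs with BMAL1, the product of Arntl, and the pair binds E-boxes in DNA and switches on the Per and Cry genes, whose proteins return to the nucleus and shut the pair down. The same pair drives Nr1d1 and Nr1d2, which encode the receptors REV-ERBα and REV-ERBβ that repress Arntl, and Dbp, which encodes a factor of the PAR bZIP family that binds D-boxes in further genes. The RNAs of Dbp, Nr1d1 and the Per genes rise and fall strongly over the day in most tissues, cortex included, while Clock RNA varies little. Per1 is also induced directly by neuronal activity and by glucocorticoids.

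The arrays were first checked against their labels. The arrays had medians of 6.16 to 6.21 (log2), no pair of arrays was identical, and arrays of 1 genotype correlated at 0.993 to 0.998 over all probe sets. Hdac4 followed the genotype on every array, with a highest level of 8.02 among the carriers of the null allele and a lowest level of 8.28 among the other mice. On 6 arrays the labelled sex and the sex-linked genes disagreed (WT 9, Hdac4HET 1, 5 and 9, Dble::R6/2 1 and 9), and Hdac4HET 5 and 9 carried both Xist and Y-linked RNA. The mean level of 12 olfactory bulb marker genes was above every WT array on 8 arrays (7 of the 9 Hdac4HET arrays and Dble::R6/2 10), with a range of 6.08 to 6.34 in WT, 6.15 to 8.69 in Hdac4HET, 6.07 to 6.33 in R6/2 and 6.03 to 7.13 in Dble::R6/2. Hdac4HET 2 and 8 were the only Hdac4HET arrays within the WT range. None of these 8 arrays is an R6/2 or WT array, so they enter the comparison of R6/2 with WT only through the spread, which was estimated over all 4 genotypes.

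In R6/2 cortex some clock genes were lower and others higher than in WT. The output gene Dbp, the repressor gene Nr1d1 and the negative-limb gene Per1 were lower and Cry1 was higher, by 1.33-fold to 1.62-fold. A gene is said to be called where limma gave it a p under 0.05 after Benjamini-Hochberg adjustment across the whole array and a change above 1.3-fold, and each gene was read by its brightest probe set. By that rule 3 of the 10 members were lower and 1 was higher, beside 3.3% of all genes called lower and 3.75% called higher. With the adjusted p alone as the rule (any size), 6 members were lower and 2 were higher, beside 18.4% and 28.1% of all genes. The median change of the 10 members was −0.24 on the log2 scale. In bulk tissue, fewer cells of a type and less RNA per cell cannot be told apart.

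**Figure D1:**
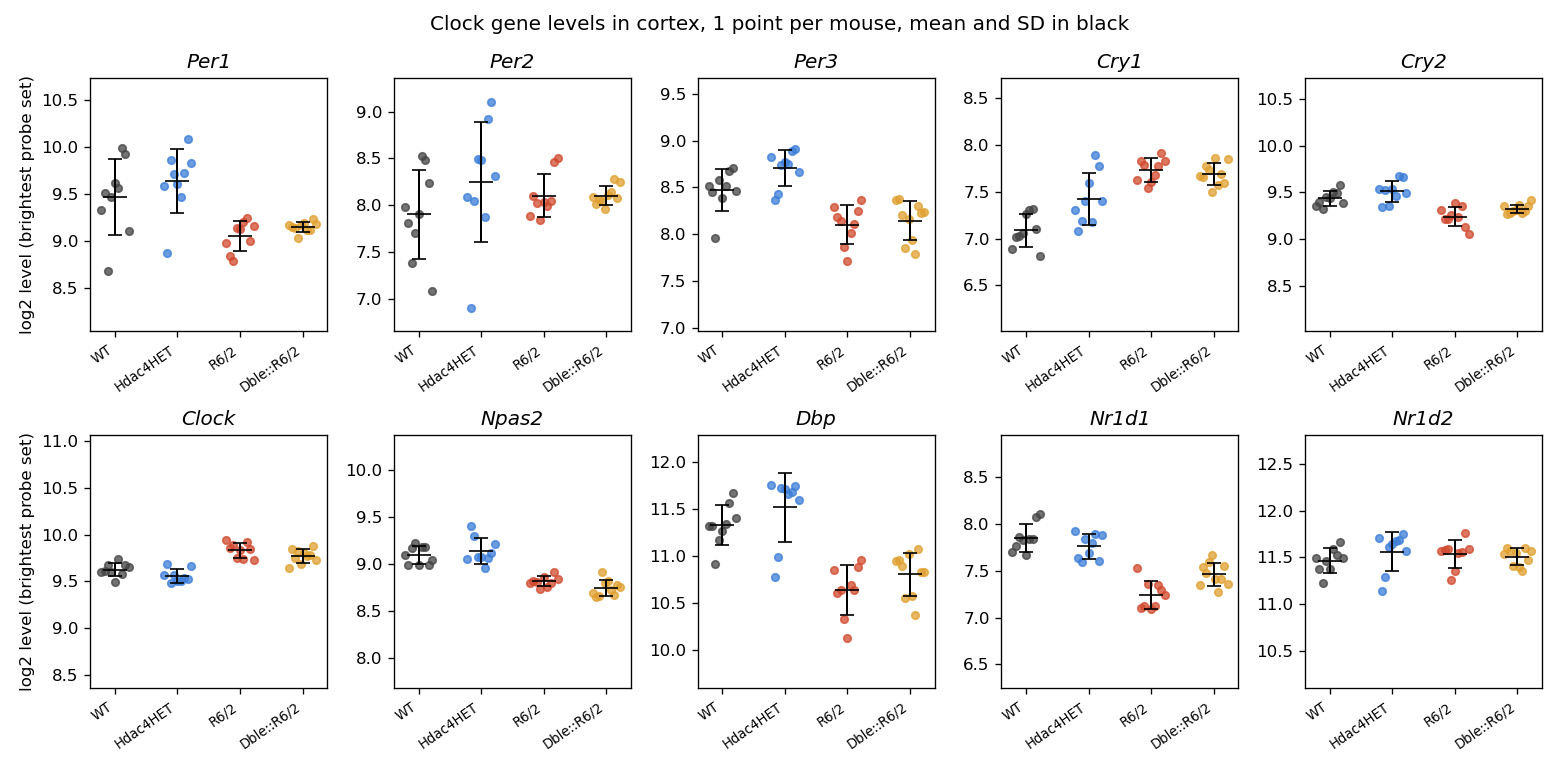
Levels of the 10 clock genes on the log2 scale (y axis, a span of equal height in every panel) in the 4 genotypes (x axis), with 1 point per mouse and the mean and SD in black. In R6/2 the levels of Cry1, Npas2 and Nr1d1 do not overlap those of WT, and Per1 and Per2 spread widely in WT and Hdac4HET and narrowly in the other two genotypes.

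Dbp showed the largest change among the members in this comparison. Its level, on the log2 scale, ran from 10.92 to 11.67 in WT (median 11.32) and from 10.12 to 10.96 in R6/2 (median 10.64). Of the 9 R6/2 mice, 8 lay below every WT mouse, and 1 WT mouse (replicate 3, at 10.92) lay within the R6/2 range. Dbp was 1.62-fold lower in R6/2, a log2 change of −0.70 ± 0.12 (SE) with an adjusted p of 1.3e-05.

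Nr1d1 ran from 7.67 to 8.10 in WT (median 7.84) and from 7.09 to 7.53 in R6/2 (median 7.24), and the groups did not overlap. It was 1.52-fold lower, at −0.61 ± 0.06 with an adjusted p of 6.6e-10. Nr1d2, its close relative with much the same role, gave 11.22 to 11.66 in WT and 11.26 to 11.76 in R6/2. These ranges covered each other, and the log2 change of Nr1d2 was 0.07 ± 0.07 (adjusted p = 0.44). The REV-ERB genes thus gave different values from the same arrays, and the difference between them was not tested.

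Among the Per genes, which encode the PERIOD repressors, Per1 ran from 8.68 to 10.00 in WT (median 9.52) and from 8.79 to 9.24 in R6/2 (median 9.13). The R6/2 mice lay wholly within the WT range and toward its lower end, with a log2 change of −0.42 ± 0.12, or 1.33-fold lower (adjusted p = 0.0054). Per1 stood close to the fold threshold and was no longer called when WT replicate 7 or WT replicate 8 was left out, with changes over all 37 single omissions of −0.51 to −0.35. Per3 ran from 7.95 to 8.71 in WT (median 8.52) and from 7.71 to 8.37 in R6/2 (median 8.14). Its fall of 1.29-fold (−0.37 ± 0.09, adjusted p = 0.0014) stood just under the threshold of 1.3-fold. Per2 gave 7.09 to 8.52 in WT and 7.84 to 8.50 in R6/2, with overlapping ranges and a change of 0.20 ± 0.18 (adjusted p = 0.41), and was the member with the widest error.

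The Cry genes, which encode the cryptochrome partners of PERIOD, moved in opposite directions. Cry1 ran from 6.81 to 7.31 in WT (median 7.06) and from 7.54 to 7.91 in R6/2 (median 7.78), so that every R6/2 mouse lay above every WT mouse. The rise was 1.56-fold, at 0.65 ± 0.08 with an adjusted p of 5.3e-08. Cry2 ran from 9.32 to 9.58 in WT (median 9.45) and from 9.06 to 9.39 in R6/2 (median 9.24), a smaller fall of −0.20 ± 0.04 (adjusted p = 0.00025) with 7 of 9 R6/2 mice below every WT mouse.

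The activator genes also split. Clock ran from 9.49 to 9.73 in WT (median 9.61) and from 9.72 to 9.94 in R6/2 (median 9.85). It rose by 0.21 ± 0.04 (adjusted p = 7.6e-06), with 8 of 9 R6/2 mice above every WT mouse. Npas2, which can take the place of Clock in forebrain, ran from 8.99 to 9.23 in WT (median 9.10) and from 8.73 to 8.91 in R6/2 (median 8.81). These groups did not overlap, and Npas2 fell by 0.28 ± 0.05 on the log2 scale (adjusted p = 3.9e-06). Both changes were under 1.3-fold. Groups that did not overlap were thus found for 3 of the 10 members (Cry1, Npas2 and Nr1d1), beside 12.2% of all genes, and Npas2 was not called for its size.

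The same transgene could be read a second time, on the Hdac4HET background, in mice that shared no array with the first comparison. Dble::R6/2 mice against Hdac4HET mice gave 4 members lower (Per1, Per3, Npas2 and Dbp) and 0 higher, beside 4.08% of all genes called lower and 2.6% called higher. At any size, 6 members were lower and 2 were higher, beside 14.1% and 28.4% of all genes. The same 8 of the 10 members passed at any size in both comparisons with the same sign, beside 31.6% of all genes. Per1 and Dbp were called in both, 2 of the 10 members, beside 4.21% of all genes. The median change of the 10 members was −0.24 again.

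Dbp ran from 10.77 to 11.76 in Hdac4HET (median 11.69) and from 10.36 to 11.08 in Dble::R6/2 (median 10.86). The Hdac4HET values fell in a high group of 7 mice and a low pair, replicates 2 and 3, which overlapped the Dble::R6/2 range. Dbp fell by 0.71 ± 0.12 on the log2 scale (adjusted p = 5.6e-06, 1.64-fold lower). Per1 ran from 8.87 to 10.09 in Hdac4HET (median 9.71) and from 9.03 to 9.24 in Dble::R6/2 (median 9.16). The Dble::R6/2 mice again lay within the range of their controls, with a change of −0.49 ± 0.12 (adjusted p = 0.00084).

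Per3 ran from 8.36 to 8.91 in Hdac4HET (median 8.75) and from 7.79 to 8.38 in Dble::R6/2 (median 8.22). The ranges met only at their edges, with 8 of 10 Dble::R6/2 mice below every Hdac4HET mouse, and Per3 fell by 0.56 ± 0.09 (adjusted p = 3.9e-06). Npas2 ran from 8.95 to 9.40 in Hdac4HET (median 9.07) and from 8.64 to 8.92 in Dble::R6/2 (median 8.74). The groups did not overlap, as for 13% of all genes, and the change of −0.39 ± 0.05 (adjusted p = 4.1e-09) was above 1.3-fold, although not when Hdac4HET replicate 2 or 3 was left out, with a range of −0.42 to −0.36 over the single omissions.

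The members that passed without reaching 1.3-fold in this comparison were Nr1d1, Cry1, Cry2 and Clock. Nr1d1 ran from 7.59 to 7.93 in Hdac4HET and from 7.28 to 7.67 in Dble::R6/2, and changed by −0.30 ± 0.06 (adjusted p = 0.00017). Cry1 ran from 7.08 to 7.89 in Hdac4HET and from 7.50 to 7.86 in Dble::R6/2, wholly inside the control range, and changed by 0.26 ± 0.08 (adjusted p = 0.0088). Cry2 changed by −0.19 ± 0.04 and Clock by 0.21 ± 0.03, each with the sign and nearly the size seen against WT. Per2 (−0.14 ± 0.18) and Nr1d2 (−0.06 ± 0.06) did not pass, with adjusted p values of 0.58 and 0.54.

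The olfactory bulb markers moved with the comparison of Dble::R6/2 and Hdac4HET, 11 of 12 being called lower. When the 8 arrays with raised markers were left out, 2 Hdac4HET arrays remained (2 and 8), and Per3 (−0.50 ± 0.16, adjusted p = 0.033) and Npas2 (−0.52 ± 0.07, adjusted p = 3.8e-06) were still called. Per1 (−0.33, adjusted p = 0.35) and Dbp (−0.46, adjusted p = 0.12) were then not called, and Nr1d1 (−0.15, adjusted p = 0.42), Cry1 (0.25, adjusted p = 0.21) and Cry2 (adjusted p = 0.059) no longer passed at any size. Leaving out only the 7 arrays with a marker mean above 7, a choice made after seeing the data, kept Hdac4HET 2, 3 and 8, which include both mice with low Dbp, and gave −0.37 for Dbp (adjusted p = 0.12) and −0.46 for Per1 (adjusted p = 0.069). Hdac4HET 2 and 3 also had the highest Npas2 of their genotype (9.40 and 9.30). The Npas2 call was lost when either was left out alone. The omission of 8 arrays keeps Hdac4HET 2 and that of 7 arrays keeps both, so neither can show that the call is robust. In R6/2 against WT these arrays bear on the SE and p only. With the R6/2 and WT arrays fitted alone the same 4 members were called, with adjusted p values of 0.013 for Per1, 1.2e-05 for Dbp, 3.9e-07 for Nr1d1 and 2.6e-07 for Cry1.

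**Figure D2:**
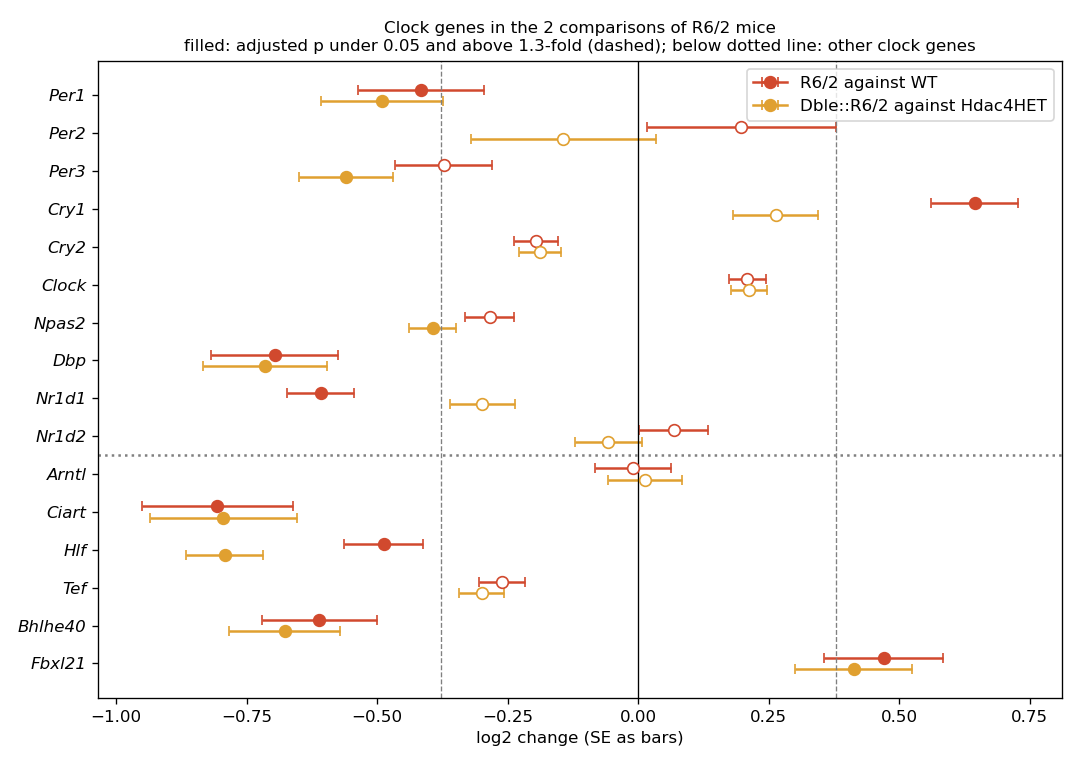
Log2 change (x axis, with SE bars) of the 10 clock genes and, below the dotted line, of 6 other clock genes in R6/2 against WT (red) and in Dble::R6/2 against Hdac4HET (yellow). Filled points passed an adjusted p of 0.05 with a change above 1.3-fold (dashed lines), and Dbp, Ciart and Bhlhe40 lie between −0.61 and −0.81 in both comparisons while Arntl lies at −0.01 and 0.01.

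Reduction of Hdac4 alone was compared between Hdac4HET and WT mice, and 0 of 10 members were called in limma, beside 0.368% of all genes. At an unadjusted p under 0.05 there were 2 (Cry1 and Per3), beside 19.1% of all genes, and the methods' t-test also called 0. Cry1 alone passed at any size, beside 1.84% of all genes. Its levels ran from 7.08 to 7.89 in Hdac4HET against 6.81 to 7.31 in WT, with 5 Hdac4HET mice above every WT mouse and 4 within the WT range, for a change of 0.34 ± 0.08 (adjusted p = 0.031, 1.26-fold). Without Hdac4HET replicate 2, the lowest of its group, Cry1 was called. Under 6 alternatives Cry1 did not pass, with adjusted p values from 0.058 after quantile normalization to 0.52 without the arrays with a bulb marker mean above 7, and without the 8 arrays with raised markers its change was 0.34 ± 0.13 (adjusted p = 0.47). All 12 bulb markers were called higher in Hdac4HET, and their part in the level of Cry1 was not tested.

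Reduction of Hdac4 in R6/2 mice was compared between Dble::R6/2 and R6/2 mice, and again 0 of 10 members were called in limma, beside 0.0879% of all genes. At an unadjusted p under 0.05 there was 1 (Nr1d1), beside 16.2% of all genes, and the methods' t-test called 0. Nr1d1 ran from 7.09 to 7.53 in R6/2 (median 7.24) and from 7.28 to 7.67 in Dble::R6/2 (median 7.44). Of the Dble::R6/2 mice, 4 lay above every R6/2 mouse, and the difference of 0.22 ± 0.06 had an adjusted p of 0.054. It passed at any size under 4 alternatives, with adjusted p values of 0.037 after quantile normalization, 0.033 among bright probe sets only, 0.049 with labelled sex as a covariate and 0.045 with array quality weights, and gave up to 0.10 under the others. The labelled sex goes against the sex-linked genes for Dble::R6/2 1 and 9. For Dbp the difference was 0.17 ± 0.12, and its interval of 2 SE on either side ran from −0.07 to 0.41. For Cry1 it was −0.04 ± 0.08, with an interval of −0.21 to 0.12.

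Whether the transgene acted differently on the 2 backgrounds was tested by the interaction term, and 0 of 10 members were called in limma, beside 0.187% of all genes. At an unadjusted p under 0.05 there were 2, Cry1 and Nr1d1, beside 19.2% of all genes, and the methods' t-test has no such term. The transgene's change of Cry1 was smaller on the Hdac4HET background by 0.38 ± 0.12 on the log2 scale (adjusted p = 0.075), where the Hdac4HET controls already stood higher. The change of Nr1d1 was less negative there by 0.31 ± 0.09 (adjusted p = 0.065). Over 10 alternatives the adjusted p of Nr1d1 ran from 0.036, after quantile normalization, to 0.26. That of Cry1 ran from 0.045, with array quality weights, to 0.45. The Hdac4HET arrays with raised bulb markers enter this term. For Dbp the interaction was −0.02 ± 0.17, with an interval of −0.36 to 0.32.

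Ordered by genotype mean, Per1, Per3, Cry2 and Dbp were highest in Hdac4HET, then WT, then Dble::R6/2, and lowest in R6/2. The neighbours Hdac4HET and WT did not pass in any of these 4 (adjusted p of 0.49, 0.19, 0.38 and 0.45), nor did the neighbours Dble::R6/2 and R6/2 (0.73, 0.86, 0.30 and 0.50), and the step from WT to Dble::R6/2 was not tested. Clock had the reverse order, with means of 9.83 in R6/2, 9.77 in Dble::R6/2, 9.62 in WT and 9.56 in Hdac4HET. Cry1 was also highest in R6/2 (7.73) and Dble::R6/2 (7.69), followed by Hdac4HET (7.42) and then WT (7.09). Npas2 was highest in Hdac4HET and WT (9.14 and 9.10) and lowest in Dble::R6/2 (8.75), and Nr1d1 was highest in WT (7.85) and lowest in R6/2 (7.25). The means of Nr1d2 lay within 11.47 to 11.56 and those of Per2 within 7.90 to 8.25.

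The other probe sets of the members mostly gave the direction of the brightest. Of the 23 probe sets, 5 were called lower and 1 higher in R6/2 against WT, beside 6.08% of all probe sets, and 6 were called lower in Dble::R6/2 against Hdac4HET, beside 7.1%. Dbp has 2 probe sets, and its less bright one (1418174_at) gave −0.78 ± 0.13 and −0.73 ± 0.12 in the comparisons of R6/2 with WT and of Dble::R6/2 with Hdac4HET. The brightest (1438211_s_at) has a suffix that marks a sequence shared with other transcripts, so the second is a separate reading of Dbp. Per3 has 6 probe sets, of which 1458176_at was called in both comparisons, at −0.40 ± 0.10 and −0.60 ± 0.09, and the others ran from −0.37 to −0.13 in R6/2 against WT. In Dble::R6/2 against Hdac4HET 1421086_at, with a low mean level of 4.74 in Hdac4HET, gave 0.07 ± 0.07 (adjusted p = 0.48). The remaining Per3 probe sets ran from −0.56 to −0.33 there.

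Clock, Per2 and Nr1d2 also had probe sets that disagreed. Of the 4 probe sets of Clock, 3 rose by 0.17 to 0.29 in R6/2, while 1439314_at gave −0.06 ± 0.07 there and −0.29 ± 0.06 in Dble::R6/2 against Hdac4HET. The 3 probe sets of Per2 gave 0.20, −0.13 and −0.21 in R6/2 against WT, and none of them passed. In Dble::R6/2 against Hdac4HET all 3 were below 0, at −0.14 ± 0.18, −0.22 ± 0.12 and −0.35 ± 0.10. Only the last, 1417603_at, passed, without reaching 1.3-fold (adjusted p = 0.0043). The sign of Per2 thus differed among its probe sets only in R6/2 against WT, where none passed. The second probe set of Nr1d2 (1416959_at), with a low mean level of 4.12 in WT, gave −0.17 ± 0.07 in R6/2 against WT (adjusted p = 0.045). The brightest, with a mean of 11.47 in WT, gave 0.07.

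**Figure D3:**
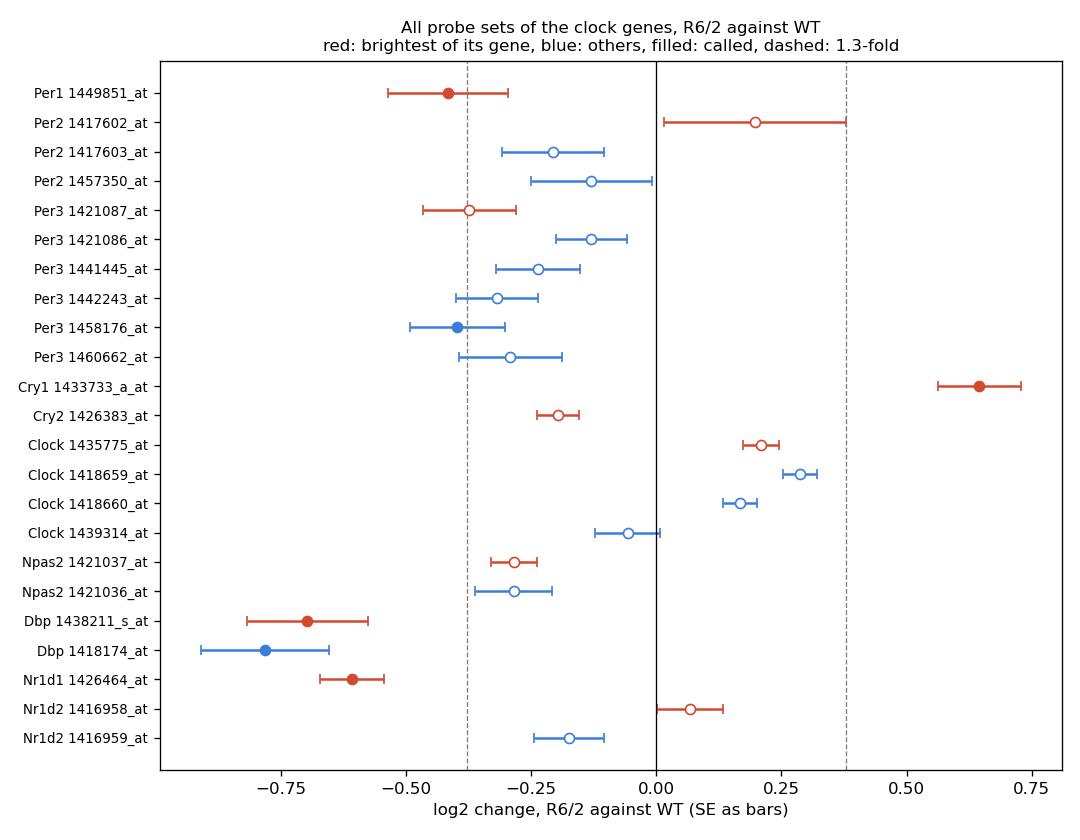
Log2 change in R6/2 against WT (x axis, with SE bars) for all 23 probe sets of the clock genes, with the brightest of each gene in red and the others in blue. Filled points were called, dashed lines mark 1.3-fold, and both probe sets of Dbp lie at −0.70 and −0.78 while those of Per2 lie on both sides of 0.

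The rest of the pathway was read from a list of other clock genes, of which 16 were analysed here. In R6/2 against WT 3 of the 16 were called lower and 1 higher, beside 3.3% and 3.75% of all genes. In Dble::R6/2 against Hdac4HET the same genes were called in the same directions, beside 4.08% and 2.6%. At any size, 4 were lower and 4 higher in R6/2 against WT, beside 18.4% and 28.1% of all genes. In Dble::R6/2 against Hdac4HET, 6 were lower and 3 higher at any size, beside 14.1% and 28.4%. Ciart, which encodes a repressor of the CLOCK and BMAL1 pair, ran from 7.43 to 8.55 in WT and from 6.93 to 7.54 in R6/2, and changed by −0.81 ± 0.14 (adjusted p = 2e-05). The ranges met only at their edges, with 6 of 9 R6/2 mice below every WT mouse. Bhlhe40, which encodes the E-box repressor DEC1, changed by −0.61 ± 0.11 and −0.68 ± 0.11 in the comparisons of R6/2 with WT and of Dble::R6/2 with Hdac4HET. Hlf, which encodes a PAR bZIP factor related to DBP, changed by −0.49 ± 0.08 and −0.79 ± 0.07, and Tef, the remaining PAR bZIP gene, passed at any size in both (−0.26 and −0.30).

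Fbxl21, which encodes an F-box protein that binds cryptochromes, was the gene called higher, at 0.47 ± 0.11 and 0.41 ± 0.11, from a low mean level of 4.88 in WT. Arntl, which encodes the partner of CLOCK and the target of the REV-ERB repressors, ran from 8.62 to 8.96 in WT, 8.50 to 9.18 in Hdac4HET, 8.57 to 9.02 in R6/2 and 8.50 to 9.00 in Dble::R6/2. These ranges covered each other, and the change of Arntl was −0.01 ± 0.07 in R6/2 against WT (adjusted p = 0.93) and 0.01 ± 0.07 in Dble::R6/2 against Hdac4HET (adjusted p = 0.91). The interval of 2 SE for R6/2 against WT ran from −0.15 to 0.14. In Hdac4HET against WT, Dble::R6/2 against R6/2 and the interaction, 0 of the 16 were called, beside 0.368%, 0.0879% and 0.187% of all genes. At an unadjusted limma p under 0.05 there were 4, 1 and 3 of the 16, beside 19.1%, 16.2% and 19.2% of all genes.

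Members of several wider gene groups moved with the same comparisons. Of 10 activity-induced genes, 8 were called lower in R6/2 against WT and 8 in Dble::R6/2 against Hdac4HET, beside 3.3% and 4.08% of all genes. In each of these, 9 of the 10 changes were below 0. In Hdac4HET against WT, Dble::R6/2 against R6/2 and the interaction 0 of the list were called, beside 0.368%, 0.0879% and 0.187% of all genes. Egr2, an early growth response factor, changed by −2.06 ± 0.40 in R6/2 against WT, Arc, a synaptic effector, by −1.11 ± 0.32 and Npas4, an activity-dependent factor, by −1.10 ± 0.31. The mean level of the 10 genes ran from 7.78 to 9.64 in WT and from 7.87 to 9.28 in R6/2. Of 8 glucocorticoid-responsive genes, 1 was called lower in R6/2 against WT (Cdkn1a, −0.73 ± 0.11) and 2 in Dble::R6/2 against Hdac4HET (Cdkn1a and Zbtb16), beside the same shares of all genes. Fkbp5, a direct glucocorticoid target, gave 0.18 ± 0.09 in R6/2 against WT (adjusted p = 0.12).

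Markers of cell types were read beside these. In R6/2 against WT, 3 of 6 markers of excitatory cortical neurons were called lower, beside 3.3% of all genes. The mean of the 6 ran from 10.31 to 10.59 in WT and 9.92 to 10.28 in R6/2. Of 5 striatal markers 4 were called lower, with ranges of the mean of 8.46 to 9.61 and 7.93 to 9.00. Of 5 astrocyte markers 0 were called and 5 were lower at any size. Choroid plexus, microglia and endothelium had 0 called, oligodendrocytes had 1 of 4 lower, and the bulb list had 1 higher and 1 lower. At any size, 3 of 5 microglia and 2 of 4 oligodendrocyte markers were lower, and 2 of 4 endothelial markers were higher. Of all genes, 18.4% were lower and 28.1% higher at any size. In Dble::R6/2 against Hdac4HET 2 of 6 excitatory and 5 of 5 striatal markers were called lower, beside 4.08% of all genes. The part of cell composition in the changes of the clock genes was not tested.

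Mice of the same genotype differed widely in some clock genes and little in others. The SD within genotypes on the log2 scale was 0.41 for Per2, 0.28 for Dbp and 0.27 for Per1, larger than that of 99.1%, 97.6% and 97.6% of the 11442 genes with a level above the median. For Per3 it was 0.21 and for Cry1 0.18. Clock, at 0.07, and Cry2, at 0.09, varied less than most members, with a smaller SD in 26.7% and 46.1% of genes. For Per1 the SD was 0.40 in WT and 0.34 in Hdac4HET against 0.16 in R6/2 and 0.06 in Dble::R6/2, and for Per2 it was 0.48 and 0.64 against 0.23 and 0.10. The spread of both was thus narrower in the mice with the transgene, which is given as a description without a test.

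This variation was shared. After the mean of each genotype was subtracted, Dbp was compared with each of the 9 other members over the 37 mice, with permutation of mice within genotypes and adjustment over the 9 relations. Nr1d2 followed Dbp most closely (Pearson r = 0.91, Spearman rho = 0.83), and Per3 came next (r = 0.89, rho = 0.81). Both had a permutation p of 1e-05, the smallest that 100000 permutations can give, and an adjusted p of 4.5e-05. Within the single genotypes r ran from 0.82 to 0.98 for Nr1d2 and from 0.86 to 0.95 for Per3. Without the pair of mice farthest from the median of Dbp, Hdac4HET 2 and 3, r was 0.86 and 0.89.

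**Figure D4:**
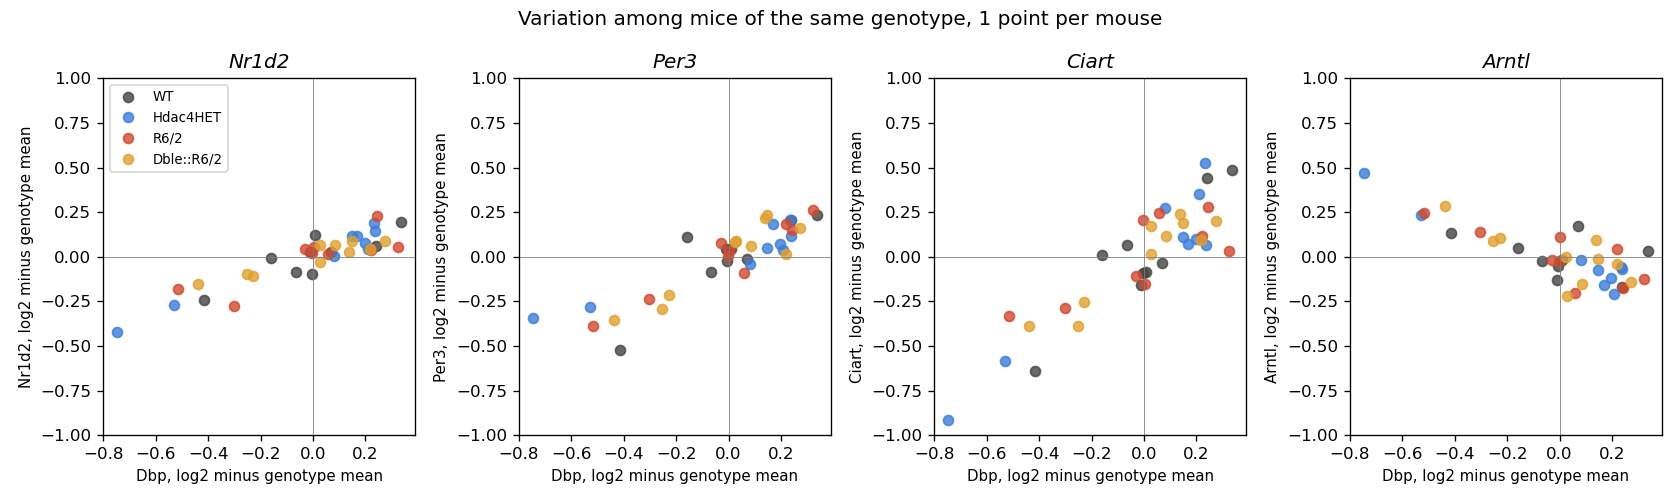
Level of Dbp (x axis) against that of Nr1d2, Per3, Ciart and Arntl (y axes), each as the log2 difference of 1 mouse from the mean of its genotype, with 37 mice coloured by genotype. Nr1d2, Per3 and Ciart rise with Dbp (r = 0.91, 0.89 and 0.89) and Arntl falls (r = −0.79), with mice of all 4 genotypes along each cloud.

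Nr1d2 thus varied with Dbp among mice of the same genotype, while between R6/2 and WT Dbp fell and Nr1d2 gave 0.07. The relation was looser for the other members. For Per2 r was 0.57 (permutation p = 0.00088, adjusted 0.0026) and rho 0.47 (p = 0.0055, adjusted 0.016), and r fell to 0.40 without the 2 farthest mice and was −0.01 within Dble::R6/2. For Nr1d1 r was 0.42 (permutation p = 0.012, adjusted 0.018) and rho 0.46 (p = 0.0069, adjusted 0.016), with r of 0.35 to 0.58 within the genotypes and 0.35 without the 2 farthest mice. Per1 (r = 0.45, permutation p = 0.010, adjusted 0.018), Cry1 (r = 0.42, permutation p = 0.028, adjusted 0.036) and Npas2 (r = −0.55, permutation p = 0.0021, adjusted 0.0048) passed by r only.

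For those genes rho was 0.20 (permutation p = 0.26, adjusted 0.33), 0.36 (p = 0.037, adjusted 0.058) and −0.35 (p = 0.039, adjusted 0.058). Their r without the 2 farthest mice was 0.38, 0.24 and −0.33, so the values of Npas2 and Cry1 rest in large part on those mice. Within genotypes the relation of Per1 ran from 0.82 in WT to −0.13 in R6/2. Clock (r = −0.15, permutation p = 0.38, rho = −0.13, p = 0.46) and Cry2 (r = 0.13, permutation p = 0.51, rho = 0.10, p = 0.58) did not pass, with adjusted p values of 0.43 and 0.52 for Clock and 0.51 and 0.58 for Cry2. Cry2 gave an r of 0.76 in WT and −0.67 in R6/2, and the difference was not tested.

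Without the 8 arrays with raised bulb markers r was 0.89 for Nr1d2, 0.91 for Per3, 0.60 for Per2, 0.56 for Per1, 0.45 for Cry1, 0.31 for Nr1d1 and −0.42 for Npas2. Whether the shared variation follows the hour of collection was not tested, since the hour is unknown here.

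Across 11432 genes other than the members, with a level above the median, those most like Dbp over the 37 mice of centred level were Ciart (r = 0.89), Tef (0.80), Tspan4 (0.74), Cipc (0.74) and Firre (0.73). Those at the opposite end were Arntl (−0.79), Rflnb (−0.74), Cldn5 (−0.71), Nwd2 (−0.70) and Slitrk1 (−0.67). From the list of other clock genes, Ciart, Tef and Cipc thus ranked 1, 2 and 4 from the top and Arntl and Nfil3 ranked 1 and 6 from the bottom. Hlf (r = 0.15) and Bhlhe40 (r = 0.32) did not stand near either end, although both were called lower in the same comparisons as Dbp. These ranks are a description, and the choice of Dbp as the reference gene was made with earlier results known.

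Promoters were read for the elements through which the loop is known to act, from RefSeq sequence of 250 bases before to 50 after each start (build GRCm38.p6). Of the members 9 had an entry, with 12 starts among them, and Per2 had none. The motifs, searched on both strands and none containing another, were the E-box CACGTG, the E′-box CACGTT, the D-box as TTATGTAA or TTACGTAA, the REV-ERB and ROR element core TAGGTCA and the cAMP response element TGACGTCA. They are held by 7.15%, 4.68%, 1.06%, 2.61% and 1.79% of all 32851 promoters of that length. Among the 12 starts, 2 held an E-box, 3 an E′-box (Cry1, Cry2 and Nr1d1), 1 D-boxes, and 0 either of the other motifs. The 250 bases before the start are shown for called members with a match and for Ciart, the gene most like Dbp, with the matched letters in capitals and 5′ to 3′ on the strand of the gene.
Per1 promoter, first of 2 starts, 1 E-box, chr11:69098699-69098948, plus strand: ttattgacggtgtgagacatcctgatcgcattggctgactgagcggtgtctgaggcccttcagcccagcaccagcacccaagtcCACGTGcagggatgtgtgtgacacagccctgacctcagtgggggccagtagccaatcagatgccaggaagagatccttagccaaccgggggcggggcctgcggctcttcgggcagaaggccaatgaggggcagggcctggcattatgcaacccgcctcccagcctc
Cry1 promoter, 1 E-box and 1 E′-box, chr10:85185055-85185304, minus strand: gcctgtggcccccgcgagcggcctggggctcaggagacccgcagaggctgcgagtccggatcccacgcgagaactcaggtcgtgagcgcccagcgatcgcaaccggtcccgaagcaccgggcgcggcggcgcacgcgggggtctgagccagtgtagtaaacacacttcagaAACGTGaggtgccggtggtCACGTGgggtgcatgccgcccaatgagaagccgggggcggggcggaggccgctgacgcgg
Nr1d1 promoter, 1 E′-box, chr11:98775378-98775627, minus strand: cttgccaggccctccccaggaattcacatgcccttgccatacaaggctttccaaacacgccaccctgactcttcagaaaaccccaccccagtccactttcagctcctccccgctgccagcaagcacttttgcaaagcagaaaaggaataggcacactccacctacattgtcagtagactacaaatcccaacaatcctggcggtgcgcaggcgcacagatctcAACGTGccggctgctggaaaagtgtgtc
Per3 promoter, 2 D-boxes, chr4:151044666-151044915, minus strand: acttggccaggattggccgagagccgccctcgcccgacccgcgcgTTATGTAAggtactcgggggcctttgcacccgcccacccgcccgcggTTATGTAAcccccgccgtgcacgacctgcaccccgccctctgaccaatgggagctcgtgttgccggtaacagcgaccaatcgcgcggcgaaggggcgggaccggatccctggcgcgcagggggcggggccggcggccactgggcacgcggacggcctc
Ciart promoter, 3 E-boxes, chr3:95882229-95882478, minus strand: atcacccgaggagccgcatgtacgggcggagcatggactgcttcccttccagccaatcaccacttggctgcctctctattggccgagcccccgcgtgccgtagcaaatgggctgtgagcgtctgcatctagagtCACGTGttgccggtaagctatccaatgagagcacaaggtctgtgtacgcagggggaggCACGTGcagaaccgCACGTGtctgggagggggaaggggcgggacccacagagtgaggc

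The E-box of Per1 begins 166 bases before the first of its 2 starts, the other having no match to any of the motifs, and that of Cry1 60 bases before. The E′-box of Cry1 begins 79 bases before the start and that of Nr1d1 28 bases before. The D-boxes of Per3 begin 205 and 158 bases before the start. Ciart has its E-boxes at 116, 58 and 44 bases before. Per1 and Cry1, the members with an E-box here, were called in opposite directions in R6/2 against WT (−0.42 and 0.65). Dbp, which fell most, had none of these letters in its window, which says nothing of elements elsewhere in the gene.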

How the data were processed

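Cortex RNA of 37 mice was measured on 1 Affymetrix array each, and genotypes were taken from the sample titles. The deposited table, made by the authors, gives log2 expression for each array. How probes were summarised and normalized is not stated in the sources used here. Values were used as deposited. The study's methods exclude some arrays of low quality without naming them, and all 37 were used. A linear model of the 4 genotypes was fitted with limma 3.58.1 (lmFit, eBayes with a trend) in R 4.3.3, and the adjusted p values given come from this model, over all 45037 probe sets. The number of arrays limits the precision. Probe sets were named from the platform annotation (34945 with 1 symbol, 932 with several, 9160 with none). Correlations and figures used Python 3.11.15. The script was tested on simulated data.

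The members and gene lists were chosen with earlier results of these data known. By rule the text names all 10 members, their called probe sets, the range of the others, other clock genes called in any comparison plus Arntl, up to 3 called genes of the activity and glucocorticoid lists, and the 5 genes at each end of the correlation with Dbp. Nfil3, Fkbp5 and the uncalled probe sets that disagreed were named after their values were seen. Replicate numbers did not pair the mice. Alternatives were quantile normalization, bright probe sets only, the compared genotypes only, the methods' t-test, labelled sex as a covariate, a replicate block, array quality weights, no probe sets with shared sequence, no fold threshold and leaving out arrays.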

Additional observations from a re-analysis of the deposited data

Results flagged for a closer look

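Of 40 groups (10 members in 4 genotypes), 1 held a mouse that stood apart from the others of its genotype. Per3 was lowest in WT replicate 3, at a log2 level of 7.95, where the other WT mice ran from 8.39 to 8.71. The gap was 0.576 of the whole range. Chance flags about 1 in 20 groups. The same mouse was the lowest WT mouse for Dbp, at 10.92. Without it Per3 passed the fold threshold in R6/2 against WT.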

How the results depend on the processing

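The counts of called members kept within 1.5 times their value under most alternatives. Without a fold threshold 8 members passed in R6/2 against WT, 8 in Dble::R6/2 against Hdac4HET and 1 in Hdac4HET against WT. Without the 8 arrays with raised bulb markers the count in Dble::R6/2 against Hdac4HET was 2, and it was 2 also without the 7 arrays with a marker mean above 7, where Per3 and Npas2 stayed called. Both omissions keep Hdac4HET replicate 2, the mouse with the highest Npas2 of its genotype. With array quality weights the interaction had 1 call (Cry1, −0.41, adjusted p = 0.045), while other alternatives gave Cry1 an adjusted p of up to 0.45. Leaving out each mouse in turn gave 0 to 1 for Hdac4HET against WT and 0 to 1 for the interaction, with Cry1 called without Hdac4HET replicate 2, 3 to 5 for R6/2 against WT and 3 to 4 for Dble::R6/2 against Hdac4HET. Per3 was called in R6/2 against WT without WT 3 or 5 or without R6/2 1, 2, 8 or 9, and with quantile normalization, where the count was 5.

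With a replicate block the counts were 4, 0, 0, 4 and 0 and no call of a member changed, and same-numbered mice did not deviate together (54 pairs, correlations of −0.27 to 0.22, median 0.0088). No member changed direction where it was called. The hour of collection, the excluded arrays and the normalization are unknown, and signal over background could not be read from the deposited values.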
